A study of Mus musculus with 4 samples.

Results

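The chemokine receptor gene Cxcr3 and the genes of its ligands, Cxcl9, Cxcl10 and Cxcl11, were described in RNA sequencing of mouse liver. They are 4 of the 24346 gene symbols listed for each library and were found by symbol, and all 4 were listed in every library. All mice were C57BL/6 males on a NASH diet, with much fat, cholesterol and sucrose and with added bile salt, for 3 weeks. The control group (2 libraries) received this diet alone, and the 7KC group (2 libraries) received it with 7-ketocholesterol, an oxidized form of cholesterol. All 4 libraries therefore carry the effect of the NASH diet, and none came from mice on normal chow. The labels give neither the age of the mice nor whether a library came from 1 mouse. P-values therefore measure only the spread between these libraries, which may be technical. The genes were chosen by their known difference in this same contrast, so their levels below are a description and carry no p-value.

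CXCL9, CXCL10 and CXCL11 are small secreted proteins that attract cells bearing CXCR3, a receptor coupled to an inhibitory G protein. CXCR3 is carried mainly by activated T cells of the Th1 and cytotoxic kind and by natural killer (NK) cells. Interferon-γ (IFN-γ) from these cells switches on the ligand genes in macrophages, endothelial cells and hepatocytes, and type I interferon and NF-κB also act on Cxcl10. The ligands are known in inflamed liver for drawing such lymphocytes into the tissue.

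The 3 ligand genes lie side by side on the minus strand of chromosome 5 (GRCm38, the mm10 build, GENCODE M21). Cxcl9 (ENSMUSG00000029417.9) spans chr5:92321347-92328079 with 4 exons. Cxcl10 (ENSMUSG00000034855.13) spans chr5:92346638-92348889 with 4 exons. Cxcl11 (ENSMUSG00000060183.6) spans chr5:92359544-92365485, and GENCODE classes it in this strain's reference as a polymorphic pseudogene. The cluster is 44139 bases long, with 18558 bases between Cxcl9 and Cxcl10 and 10654 between Cxcl10 and Cxcl11. Cxcr3 (ENSMUSG00000050232.6) lies on chromosome X at chrX:101731535-101734269, also on the minus strand, with 2 exons.

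The promoters of 3 of the 4 genes were matched in RefSeq (GRCm38.p6), and they are shown because the ligand levels differed between the groups while the receptor level differed little. Each line holds the 250 bases before the gene's RefSeq start, on the minus strand, and capitals mark matches to the motifs searched on both strands. The windows are chr5:92328080-92328329 for Cxcl9, chr5:92348890-92349139 for Cxcl10 and chrX:101734148-101734397 for Cxcr3. The RefSeq and GENCODE starts are the same for Cxcl9 and Cxcl10. For Cxcr3 the GENCODE start lies farther upstream, so that 122 bases of its window are inside the GENCODE gene.
Cxcl9: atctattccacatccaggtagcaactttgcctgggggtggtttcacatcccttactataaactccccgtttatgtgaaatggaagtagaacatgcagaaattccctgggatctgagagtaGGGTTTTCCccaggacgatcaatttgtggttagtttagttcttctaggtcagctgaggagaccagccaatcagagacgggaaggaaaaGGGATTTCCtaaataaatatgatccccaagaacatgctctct
Cxcl10: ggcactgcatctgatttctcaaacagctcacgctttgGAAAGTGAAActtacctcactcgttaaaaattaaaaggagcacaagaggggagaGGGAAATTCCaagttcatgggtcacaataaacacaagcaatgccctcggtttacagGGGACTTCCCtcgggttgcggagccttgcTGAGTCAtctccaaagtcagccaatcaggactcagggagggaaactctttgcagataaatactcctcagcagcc
Cxcr3: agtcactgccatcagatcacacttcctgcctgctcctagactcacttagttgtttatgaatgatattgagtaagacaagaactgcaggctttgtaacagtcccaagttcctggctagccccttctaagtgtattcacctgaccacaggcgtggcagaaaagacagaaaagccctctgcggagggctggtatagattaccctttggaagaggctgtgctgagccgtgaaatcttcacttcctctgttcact
Cxcl9 held a short form of the NF-κB motif, GGGNNTTCC, from -130 to -122 and from -42 to -34, counted from the base before the start as -1. The same short motif was found in 4.97% of 32817 mouse promoter windows of this length. Cxcl10 held a pair of GAAA elements with any 2 bases between them, the kind bound by interferon regulatory factors, from -213 to -204, and 2.97% of all windows held them. It also held the NF-κB consensus from -159 to -150 and from -103 to -94, against 3.9% of all windows. The second of these overlaps a match to the short form from -103 to -95. The AP-1 motif TGANTCA stood from -74 to -68 in Cxcl10 and in 6.75% of all windows. The GAS motif TTCNNNGAA, named for activation by IFN-γ, was in 7.01% of all windows and in none of these 3. The Cxcr3 window, which is placed differently against the GENCODE start, held none of the 5 motifs. A match describes letters and not a bound site, and no match says only that these letters are not in this window.

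Levels are given in FPKM (mapped fragments relative to exon length and to library size), which is per length and so allows genes to be compared. The estimated depth was 13500000 to 17100000 mapped reads per library. Changes are differences of log2(FPKM + 0.5) with the standard error (SE) of a limma fit over 12299 genes (mean FPKM of 0.5 or more), a scale that understates the change of low genes. A gene past the test had an adjusted p under 0.05 by limma with Benjamini-Hochberg adjustment over these genes. Of all genes tested, 0.48% were higher and 0.0244% lower in the 7KC group by this test. Both 7KC libraries stood above both control libraries for 25.1% of genes, and below both for 27.4%. Summed FPKM of all genes was 671000 to 685000 in the control group and 557000 to 620000 in the 7KC group. Rescaled to the same sum (TPM), 46.5% of genes were higher and 7.86% lower in both 7KC libraries, and the median log2 change of all genes was 0.166 instead of -0.03. On that scale the log2 changes were 3.07 for Cxcl9, 2.59 for Cxcl10, 0.79 for Cxcl11 and 0.52 for Cxcr3.

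Cxcl9 was the most abundant of the 4 genes in every library. It stood at 29.0 and 22.3 FPKM in control replicates 1 and 2, and at 221 and 159 FPKM in 7KC replicates 1 and 2. Both 7KC libraries lay far above both control libraries. The means were 25.7 ± 4.70 FPKM (SD, n = 2) and 190 ± 43.8 FPKM (SD, n = 2), a ratio of 7.39. The log2 change was 2.85 (SE 0.21), the 9th largest rise of the 12299 genes tested. Its level moved from the 89.9th percentile of the genes listed in the control group to the 98.2nd in the 7KC group.

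Cxcl10, the ligand also known as IP-10, followed the same order of libraries at a lower level. It stood at 12.4 and 9.49 FPKM in the control group and at 79.8 and 42.5 FPKM in the 7KC group. The groups did not overlap, but the 7KC libraries differed 1.88-fold from each other. The means were 11.0 ± 2.07 FPKM (SD, n = 2) and 61.2 ± 26.3 FPKM (SD, n = 2), a ratio of 5.58, and the log2 change was 2.37 (SE 0.32), the 19th largest. The change was 1.92 without 7KC replicate 1 and 2.82 without 7KC replicate 2. In the annotation 133 exon bases of Cxcl10 overlap Art3, a gene on the opposite strand that spans all of Cxcl10 and Cxcl11. Whether the counting used the strand was not given in the sources used here, so reads in these bases are uncertain.

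CXCL11 is the ligand with the highest affinity for CXCR3, but its gene is classed as a polymorphic pseudogene in this strain's reference. Whether these mice make the protein cannot be read from mRNA. Cxcl11 mRNA was the lowest of the ligand mRNAs in every library. It stood at 0.887 and 0.827 FPKM in the control group and at 2.32 and 0.944 FPKM in the 7KC group. Only 7KC replicate 1 stood clearly above the other 3 libraries. The log2 change was 0.57 (SE 0.34), and it was 0.09 without 7KC replicate 1 and 1.06 without 7KC replicate 2. By its 1581-base transcript, these levels correspond to about 21, 16, 43 and 18 reads in control replicates 1 and 2 and 7KC replicates 1 and 2. At that depth the coefficient of variation from counting alone is 15.2% to 25.3%. The other annotated transcript, of 3794 bases, would give more reads. The pseudogene Gm2673, on the opposite strand, shares 1582 exon bases with Cxcl11, so its reads are uncertain too. These bases lie outside the 1581-base transcript.

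Cxcr3 itself differed little between the groups. It stood at 1.87 and 1.44 FPKM in the control group and at 1.87 and 2.53 FPKM in the 7KC group. Control replicate 1 and 7KC replicate 1 were equal to 3 digits, and only 7KC replicate 2 stood above both control libraries by more than that. The means were 1.66 ± 0.301 FPKM (SD, n = 2) and 2.2 ± 0.464 FPKM (SD, n = 2), a ratio of 1.33. The log2 change was 0.32 (SE 0.20), and it moved to 0.14 when 7KC replicate 2 was left out, to 0.18 when control replicate 2 was, and to 0.50 when 7KC replicate 1 was. The estimated reads were 49, 30, 39 and 53 in control replicates 1 and 2 and 7KC replicates 1 and 2, with a counting coefficient of variation of 13.8% to 18.2%.

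Of the 4 genes, 1 (Cxcl9) was among the 0.48% of genes past the test, and all 4 were higher without overlap by the exact values, against 25.1% of all genes. This contrast chose the genes, so nothing is read from these counts. In the order of levels within the control group, Cxcl9, Cxcl10, Cxcr3 and Cxcl11, neighboring genes did not overlap. Within the 7KC group Cxcl9 and Cxcl10 did not overlap either, while the ranges of Cxcr3 and Cxcl11 did.

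**Figure D1:**
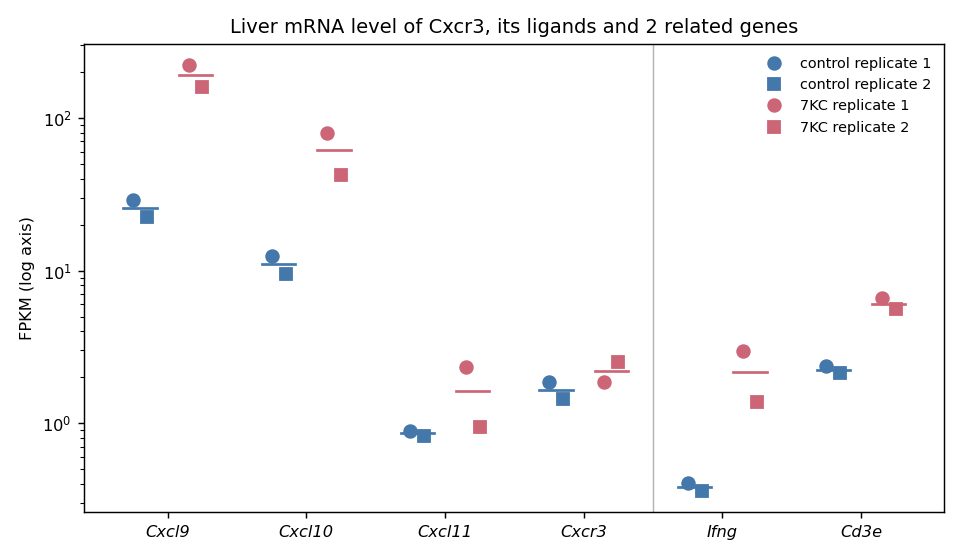
FPKM on a log axis for Cxcr3, its ligands and, right of the line, Ifng and Cd3e. Each point is 1 library (circles replicate 1, squares replicate 2; blue control, red 7KC) and each bar a group mean. Cxcl9 and Cxcl10 are separated between the groups, whereas the Cxcr3 points of control replicate 1 and 7KC replicate 1 are both at 1.87 FPKM.

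The ligands and the receptor took a different order within the 7KC group. The level in 7KC replicate 1 was 1.39 times that in replicate 2 for Cxcl9, 1.88 times for Cxcl10 and 2.46 times for Cxcl11, but 0.74 times for Cxcr3. The median of this ratio was 1.01 over 12272 genes, and 5.17%, 1.12% and 0.44% of these genes had a ratio as high as Cxcl9, Cxcl10 and Cxcl11. For Cxcr3 this share was 88.6%. Ifng, the IFN-γ gene, had a ratio of 2.17, and Socs1, a feedback inhibitor of cytokine signaling, 2.63. Thus the 7KC library with more of each ligand had less of the receptor, by 39 against 53 estimated reads of Cxcr3. In the control group the ratio of replicate 1 to replicate 2 was 1.3 for Cxcl9, 1.31 for Cxcl10, 1.07 for Cxcl11 and 1.3 for Cxcr3. There the library with more of each ligand also had more of the receptor. With 2 libraries per group neither order has a test.

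The make-up of the ligand mRNA was described as shares of the summed ligand FPKM. Cxcl11 was counted by its mRNA, whether or not these mice make the protein. The sum was 42.3 and 32.7 FPKM in the control group and 303 and 202 FPKM in the 7KC group, 6.73 times higher on average. Cxcl9 made up 68.5% and 68.4% of it in the control group and 72.9% and 78.5% in the 7KC group, a difference of 7.20 percentage points, which was 4.39 without 7KC replicate 2 and 10.0 without 7KC replicate 1. The control libraries were nearly identical and both 7KC libraries were higher. Cxcl10 made up 29.4% and 29.1%, and then 26.4% and 21.1%. Cxcl11 made up 2.10% and 2.53%, and then 0.768% and 0.467%. The summed ligands exceeded Cxcr3 22.6-fold in each control library, and 162-fold and 80.0-fold in 7KC replicates 1 and 2. As 2 libraries against 2 give only 3 splits, the smallest two-sided p of an exact permutation test is 0.333, and none of these ratios can pass it.

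Cxcr3 was then set beside markers of the cells that carry it. The T-cell list held 15 markers, of which 12 were listed. Its summed level was 24.1 and 15.5 FPKM in the control group and 54.2 and 53.3 FPKM in the 7KC group, and all 12 markers were higher in both 7KC libraries. Of the 11 tested, 0 passed the limma test at an adjusted p under 0.05, and their log2 changes ran from 0.81 to 1.52 with a median of 1.26, each above the 0.32 of Cxcr3. Cd3e, a chain of the T-cell receptor complex, was at 2.37 and 2.12 FPKM in the control group and at 6.58 and 5.59 FPKM in the 7KC group, with an adjusted p of 0.0503 in limma.

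Relative to these markers Cxcr3 was lower in the 7KC group. Cxcr3 was 7.74% and 9.30% of the summed T-cell list in the control group and 3.45% and 4.73% in the 7KC group, a difference of -4.43 percentage points, or -5.21 to -3.65 with each library left out in turn. As a percent of Cd3e, Cxcr3 was 78.8% and 68.1% in the control group and 28.4% and 45.2% in the 7KC group. The groups did not overlap in either ratio. Cxcr6, another receptor of T cells in the liver, did overlap: it was 85.9% and 70.8% of Cd3e in the control group and 68.2% and 78.1% in the 7KC group. Whether Cxcr3 differed from Cxcr6 in this respect was not tested, since Cxcr3 was chosen on this contrast. In whole liver, fewer cells of a type and less RNA per cell cannot be told apart.

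**Figure D2:**
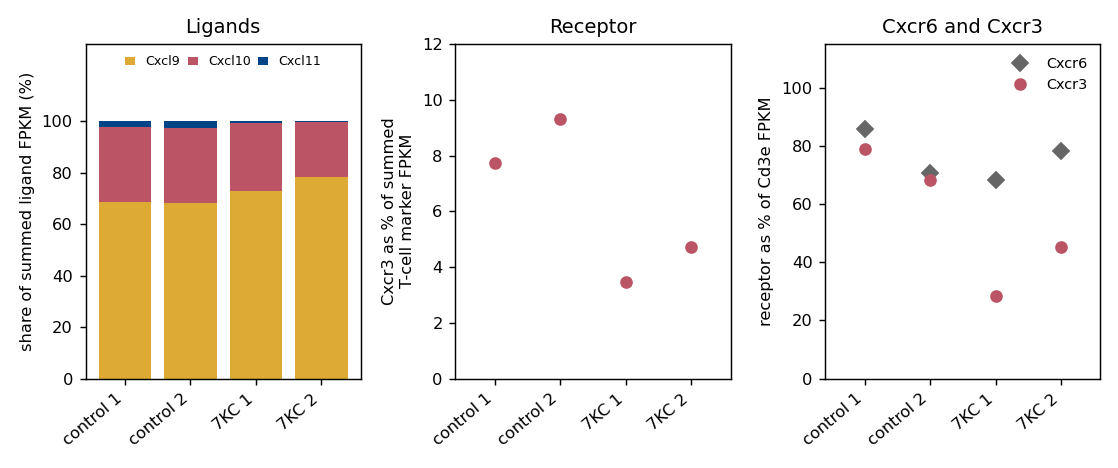
Within-library ratios for each of the 4 libraries. Left, the share of each ligand in the summed ligand FPKM (%); middle, Cxcr3 as a percent of the summed T-cell marker FPKM, at 7.74% and 9.30% in the control and 3.45% and 4.73% in the 7KC libraries; right, Cxcr3 (circles) and Cxcr6 (diamonds) as a percent of Cd3e, where Cxcr3 is lower in both 7KC libraries and Cxcr6 overlaps.

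Markers of some other cells also differed between the groups. All 8 tested markers of NK and cytotoxic cells were higher in both 7KC libraries. The summed level of the list was 54.2 to 121 FPKM in the control group and 336 to 445 FPKM in the 7KC group. Most of this sum was Ccl5, at 109 and 45.4 FPKM in the control group and at 411 and 312 FPKM in the 7KC group. For monocytes and recruited macrophages, 7 of 10 markers were higher in both 7KC libraries. The sum was 128 and 76.8 FPKM in control replicates 1 and 2, and 254 and 503 FPKM in 7KC replicates 1 and 2. Most of it was Spp1, also on the cholangiocyte list, at 85.6 and 54.1 FPKM and then at 165 and 363 FPKM. Within the 7KC group this sum was higher in replicate 2, whereas the ligands were higher in replicate 1. Of 8 Kupffer cell markers 4 were higher and 1 was lower in both 7KC libraries, while by TPM 5 were higher and 0 lower. Their sums were 469 and 453 FPKM in control replicates 1 and 2, and 586 and 853 FPKM in 7KC replicates 1 and 2. This sum too was higher in 7KC replicate 2. Hepatocyte markers went the other way. Of 14 markers, 11 were lower in both 7KC libraries, with sums of 67000 to 78700 FPKM and then 43500 to 57100 FPKM, and by TPM 8 of 14 were. Other lists moved less or in both directions. Of 8 markers of sinusoidal endothelial cells, 1 was higher in both 7KC libraries and 7 overlapped (median log2 change 0.08, sums of 136 to 160 FPKM and then 137 to 204 FPKM). Of 8 stellate cell markers 2 were higher and 3 lower (median -0.06). The lists of conventional dendritic cells (4 of 6 higher), plasmacytoid dendritic cells (1 of 2), B cells (2 of 4) and neutrophils (2 of 4) had medians of 0.41 to 0.69 and no marker lower in both. Of 5 cholangiocyte markers 3 were higher and 1 lower. Over all genes tested, 25.1% were higher and 27.4% lower in both 7KC libraries, or 46.5% and 7.86% by TPM. Nothing is read from counts near these shares. By limma 0 markers of any list passed at an adjusted p under 0.05. Their part in the levels of the ligands and of Cxcr3 was not tested.

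The neighborhood of the ligand genes was examined to see whether nearby genes shared their difference. Of the genes within 200 kb of a ligand gene, 7 besides the ligands were tested, and Naaa, which encodes a lysosomal amidase of immune cells, was higher in the 7KC group. Naaa (chr5:92257659-92278170) was at 4.64 and 4.26 FPKM in the control group and at 11.7 and 11.2 FPKM in the 7KC group. Its log2 change was 1.28 ± 0.12 (SE), with a limma adjusted p of 0.0311. Art3, which spans Cxcl10 and Cxcl11 on the other strand, was at 1.80 and 1.12 FPKM and then at 2.47 and 2.29 FPKM, a log2 change of 0.58 that did not pass (limma adjusted p = 0.26). Apart from the ligand genes, the tested genes nearest to Naaa and to Art3 did not follow. Sdad1, between Naaa and Cxcl9, had a log2 change of 0.07, Nup54 of -0.14 and Scarb2 of -0.05, and the signs of these 3 were not stable to the processing. Farther out, Uso1 had a log2 change of -0.32 and Fam47e of -0.50. Near Cxcr3, Ogt, which encodes the enzyme that adds O-GlcNAc to proteins, had a log2 change of 0.22. None of these passed the test.

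**Figure D3:**
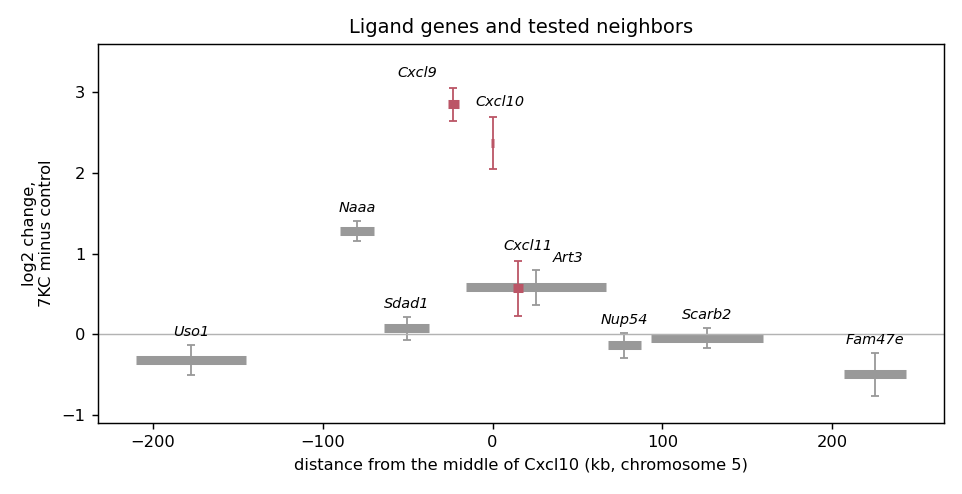
Log2 change (7KC minus control, FPKM + 0.5) of the ligand genes (red) and of tested neighbors (gray) against the distance in kb from the middle of Cxcl10. Thick bars span each gene and thin bars are ± 1 SE of the limma fit; Naaa at 1.28 stands above Sdad1 at 0.07, which lies between it and Cxcl9.

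Genes that drive the ligand genes were taken first, from lists of the pathway. Of 16 tested genes of IFN-γ production and signaling, 2 rose, 0 fell, and 14 were higher in both 7KC libraries. The median log2 change was 0.83 against -0.03 over all genes tested. By TPM 15 were higher, with a median of 1.12 against 0.17. Irf8, an interferon regulatory factor of myeloid cells, was at 10.6 and 8.16 FPKM in the control group and at 26.8 and 26.2 FPKM in the 7KC group. Its log2 change was 1.46 ± 0.15 (SE), with a limma adjusted p of 0.0369. Ciita, the regulator of MHC class II genes, missed the threshold with a log2 change of 1.58 (limma adjusted p = 0.0512), as did the receptor chain Ifngr2 with 0.66 (limma adjusted p = 0.0621). Ifng, named after its values were seen, was at 0.408 and 0.362 FPKM in the control group and at 2.99 and 1.38 FPKM in the 7KC group (log2 change 1.53, SE 0.32, limma adjusted p = 0.104).

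The other inputs did not pass the test on the FPKM scale, but some did by TPM. Tmem173, Irf7 and Relb then passed (limma adjusted p = 0.0272, 0.0223 and 0.0334), while Tnf did not (limma adjusted p = 0.0661). Of 14 genes of type I interferon and RNA sensing 0 passed by FPKM, and 11 were higher and 2 lower in both 7KC libraries. The median log2 change was 0.42. By TPM 12 were higher and 1 lower, with a median of 0.62. The smallest p belonged to Tmem173, which encodes the sensor adaptor STING, with a log2 change of 1.38 (limma adjusted p = 0.0513), and to Irf7 with 1.06 (limma adjusted p = 0.0619). Of 16 NF-κB genes 0 passed by FPKM, 12 were higher in both 7KC libraries, and the median was 0.35. By TPM all 16 were higher, with a median of 0.56, against 46.5% of all genes higher. Relb, an NF-κB subunit, had a log2 change of 1.04 (limma adjusted p = 0.0648), and the cytokine gene Tnf 1.52 (limma adjusted p = 0.127).

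Genes that handle the ligands once secreted showed no shared direction. They include proteases, scavenging receptors and a heparan sulfate proteoglycan. Of 9 tested, 0 passed, 1 was higher and 2 were lower in both 7KC libraries, and the median log2 change was -0.10. By TPM 2 were higher and 0 lower, with a median of 0.05. Dpp4, a protease that trims CXCL10, was at 24.9 and 29.6 FPKM in the control group and at 21.3 and 21.2 FPKM in the 7KC group (log2 change -0.35, limma adjusted p = 0.251). Ctsd, the lysosomal protease cathepsin D, was at 351 and 292 FPKM in the control group and at 393 and 639 FPKM in the 7KC group (log2 change 0.65, limma adjusted p = 0.289). Sdc4, a syndecan that binds CXCL10, had a log2 change of -0.30 (limma adjusted p = 0.408).

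Downstream of the receptor, 0 of 14 tested genes of signal transduction passed, although 12 were higher and 1 lower in both 7KC libraries, with a median log2 change of 0.86. Rac2, a small GTPase of blood cells needed for migration, had a log2 change of 1.26 (limma adjusted p = 0.0805). Pik3r5, a regulatory subunit of the PI3-kinase that G proteins activate, had 1.34 (limma adjusted p = 0.0848). Of 12 genes of adhesion and retention 1 rose, 10 were higher and 1 lower in both 7KC libraries, and the median was 1.02. Icam1, the endothelial ligand of the integrin LFA-1, was at 14.2 and 12.3 FPKM and then at 36.1 and 31.7 FPKM. Its log2 change was 1.32 ± 0.13 (SE), with a limma adjusted p of 0.034. Itgal, the LFA-1 chain that binds it, had a log2 change of 1.24 (limma adjusted p = 0.0523).

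Among the other chemokines of the CXC family, 0 of 9 tested passed, with a median log2 change of -0.01, or 0.15 by TPM, and 4 were higher and 1 lower in both 7KC libraries. Cxcl16, the ligand of CXCR6, had a log2 change of 1.04 (limma adjusted p = 0.0619). Cxcl12, the ligand of CXCR4, was at 126 and 108 FPKM in the control group and at 91.2 and 81.2 FPKM in the 7KC group (log2 change -0.44, limma adjusted p = 0.203). Of 9 other chemokine receptors tested 0 passed, and 6 were higher and 1 lower in both 7KC libraries, with a median of 0.91. Cxcr6 had a log2 change of 1.13 (limma adjusted p = 0.0606) and Ccr2, the receptor of recruited monocytes, of 1.59 (limma adjusted p = 0.117).

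Over all 8 lists, 3 of 99 tested genes rose and 0 fell, against 0.48% and 0.0244% of all genes. In both 7KC libraries 70 were higher and 8 lower, against 25.1% and 27.4% of all genes. By TPM 25 list genes passed the limma test, while 402 genes passed as higher and 7 as lower among all tested. The 25 include Ciita, Ifngr2, Tmem173, Irf7, Relb, Rac2, Itgal, Cxcl16 and Cxcr6. The calls of Irf8, Icam1 and Naaa depended on the libraries. Without control replicate 2 their limma adjusted p was 0.0676, 0.0886 and 0.0817 in that order. It was 0.152 to 0.159 without 7KC replicate 1 and 0.224 to 0.289 without 7KC replicate 2. With the replicate number as a block it was 0.151 for each. The log2 changes of these 3 genes stayed between 1.20 and 1.68 in all alternatives.

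**Figure D4:**
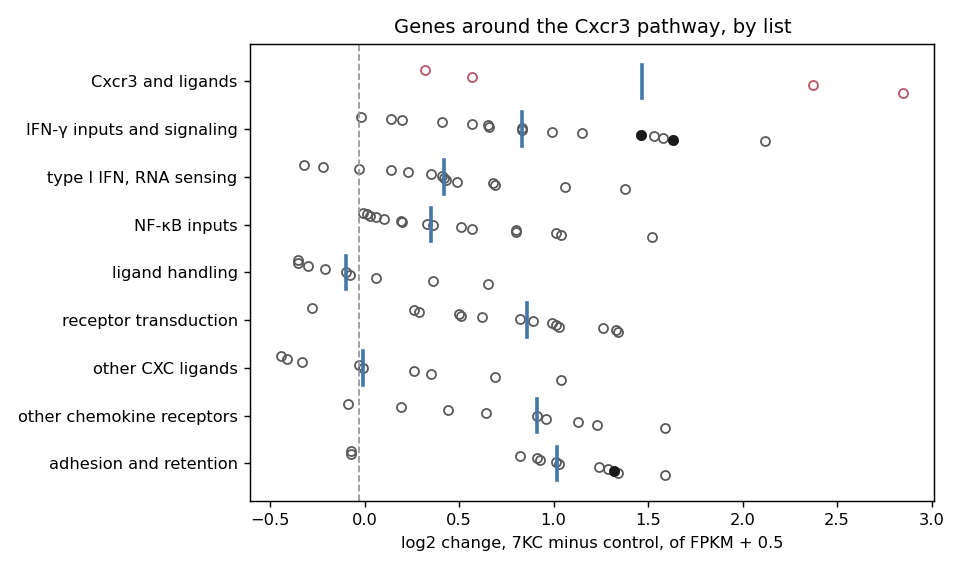
Log2 change (7KC minus control, FPKM + 0.5) of each tested gene by list. Open circles did not pass the limma test, filled circles did (Irf8 and Icam1 among them), red circles are Cxcr3 and its ligands, given without their test result, blue bars are list medians and the dashed line is the median of all genes tested, -0.03.

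The genes whose pattern over the 4 libraries was most like each of the 4 genes were found by the Euclidean distance of centered log2(FPKM + 0.5). This measure selects on the group difference too, so no test is given. Nearest to Cxcl9 were Nos2 (0.13), the inducible nitric oxide synthase, Ubd (0.318), a ubiquitin-like protein, and Gbp5 (0.36), a guanylate-binding protein. Nos2 was at 0.797 and 0.495 FPKM in the control group and at 10.3 and 6.64 FPKM in the 7KC group. Nearest to Cxcl10 were Gm12250 (0.229), Gbp6 (0.31) and Socs1 (0.406). Socs1 was at 2.54 and 2.07 FPKM in the control group and at 18.8 and 7.17 FPKM in the 7KC group, the same order of libraries as Cxcl10. Nearest to Cxcl11 were A930015D03Rik (0.0759), Nudt7 (0.156) and 3110001I22Rik (0.235), and nearest to Cxcr3 were Myo1c (0.00735), Tnfrsf11b (0.026) and Rnf166 (0.0296). None of the 3 genes nearest to Cxcr3 was a marker on the T-cell list. That follows from the measure, because the tested T-cell markers had log2 changes of 0.81 to 1.52 against 0.32 for Cxcr3. Nothing further is read from it.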

How the data were processed

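Liver RNA was sequenced in 4 libraries, 2 of the control group and 2 of the 7KC group, grouped by their labels. The authors prepared stranded mRNA libraries, sequenced single-end reads, mapped them to mm10 and calculated FPKM, which they deposited for each symbol in a file per library. The submitters' processing notes list TopHat2 2.1.1, Bowtie2 2.2.8, SAMtools 0.1.18 and Cuffdiff 2.2.1. The annotation and the treatment of strand and multi-mapped reads were not given in the sources used here. Since FPKM is scaled to a library's mapped reads, abundant genes move the rest.

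Values were compared as log2(FPKM + 0.5). Genes averaging 0.5 FPKM or more (12299) were fitted in R 4.3.3 using limma 3.58.1 (lmFit, then eBayes with trend; group as the only term), with Benjamini-Hochberg adjustment and a threshold of 0.05. No count model was applied to FPKM. Reads were estimated only to describe depth, from the steps of low values and GENCODE M21 transcript lengths less 200 bases. By library, 71.7% to 75.2% of low values came within 0.1 of a whole read, and these estimates cover counting error only.

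The genes, lists and markers were chosen with earlier results of these data known. Besides the 4 genes, those named are neighbors within 200 kb of a ligand gene or 100 kb of Cxcr3, up to 4 genes per list with the smallest p, and the 3 nearest patterns per gene. Ifng, Cd3e and the receptor ratios to Cd3e were named outside this rule. Some genes that the rule names are not reported here. Alternatives were the pseudocount, the filter, rescaling, the variance trend, a replicate block and leaving out each library. A crossed replicate block, and leaving out libraries for the ratios, were added after seeing the data. Figures were drawn with matplotlib 3.10.9.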

Additional observations from a re-analysis of the deposited data

How the results depend on the processing

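Over 12 alternatives each, all 4 genes stayed higher in the 7KC group, with log2 changes of 2.62 to 3.09 for Cxcl9, 1.92 to 2.82 for Cxcl10, 0.09 to 1.06 for Cxcl11 and 0.14 to 0.52 for Cxcr3. The difference in the Cxcl9 share was 4.39 to 10.0 percentage points when each library was left out, and that of Cxcr3 to the T-cell list -5.21 to -3.65. Counts of calls moved widely. From 59 genes higher, 3 lower and 3 list genes, they became 111 higher and 7 list genes with a pseudocount of 1 FPKM, and 402, 7 and 25 when rescaled to the same sum (TPM). Without the variance trend they were 39, 1 and 1. Without the filter on low values limma gave 0 higher, 1 lower and 0 list genes, with 2634 genes at an unadjusted p under 0.05. With the replicate number as a block limma gave 0 higher, 0 lower and 0 list genes, with 1851 at an unadjusted p under 0.05. The labels do not say that a number marks a shared cage or day. The deviations of same-numbered libraries had a correlation of -0.1412, and the crossed pairing as a block, added after seeing the data, gave 551 higher, 37 lower and 29 list genes. Leaving out 1 library gave 2 to 389 higher (389 without control replicate 1), 1 to 52 lower and 0 to 20 list genes, with the lone library assumed to vary like the others. The sign reversed for Nup54 (0.06 by TPM, -0.32 to 0.04 with libraries left out), Scarb2 (0.16 by TPM, -0.13 to 0.03), Sdad1 (-0.01 to 0.14) and Nudt7 (-0.05 to 1.02). The causes were not tested. Depth limits Cxcl11 and Cxcr3, with 16 to 53 estimated reads per library, taking the 1581-base transcript of Cxcl11.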
